A study of Mus musculus with 14 samples.

Results

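The genes described here are the NF-κB subunits and feedback inhibitors of mouse lung group 2 innate lymphoid cells (ILC2s). The set was chosen by gene symbol and holds 10 of the 53278 genes in the deposited tables, 4 subunit genes (Nfkb1, Nfkb2, Rel and Relb) and 6 inhibitor genes (Nfkbia, Nfkbie, Nfkbid, Nfkbiz, Tnfaip3 and Tnip3). All 10 symbols were found in both the count and the TPM tables of each of the 2 experiments, and all 10 had enough counts to be tested in both. ILC2s were sorted from the lung as live, lineage-, CD90.2+, CD3- cells, about 15000 per sample, and their polyA RNA was sequenced in 14 libraries.

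In the stimulation experiment, 4 libraries came from unstimulated ILC2s and 4 from ILC2s given IL-33 at 20 ng/mL for 24 h, each library, by the deposited description, from a different one of 8 female B6 mice. For the unstimulated cells the deposited description speaks both of 24 h of culture without the cytokine and of cells ex vivo. If they were not cultured, culture and IL-33 cannot be told apart. In the Blimp-1 experiment, 3 libraries came from ControlIL7RaCre mice and 3 from Blimp-1IL7RaCre mice, all female and matched for age. All 6 samples spent 72 h in culture with 20 ng/mL of IL-33 and 20 ng/mL of IL-25 (the methods also name IL-2, absent from the labels). Both genotypes carry Cre under the Il7r gene, and the floxed Prdm1 gene, which encodes the transcriptional repressor Blimp-1, is therefore deleted in every ILC subset and in T, B and NK cells of the Blimp-1-deficient mice, so that ILC2s were not the only cells without Blimp-1 before sorting. The methods state that animals were over 6 weeks of age.

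NF-κB is a family of dimeric transcription factors that inhibitor proteins of the IκB family hold in the cytoplasm until a receptor such as the IL-33 receptor activates the IκB kinase (IKK) complex, which marks the inhibitors for destruction. The freed dimers enter the nucleus and switch on cytokine genes, and among their best known targets are the genes of their own inhibitors and of some of their own subunits, so that the signal limits itself. In ILC2s the IL-33 receptor signals through this pathway, and IL-33 is one of the main activators of these cells in the lung.

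The promoter sequences of the genes are shown because NF-κB acts through a short DNA element, the κB motif. It was searched here on both strands as GGG, a purine, any base, A or T, a pair of pyrimidines and CC. Windows from 250 bases before to 50 bases after each annotated start were taken from RefSeq on GRCm38.p6, which gave 12 windows for 7 of the 10 genes. Nfkb1, Relb and Nfkbiz are named only. The motif was present in at least 1 window of 7 of these 7 genes and in 9 of the 12 windows, against 4.51% of all 32851 windows and 5.14% of the 27025 genes with a window. The only window of Rela, the subunit gene outside the set, held no match. The stretches around the matches, shown because they are what these promoters have in common, read 5′ to 3′ on the strand of the gene, and capitals mark the matches, joined where they overlap:

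Nfkb2, chr19:46304689-46304717 (+): gatcgtcacGGGAATTCCCCccctcgggg
Nfkb2, chr19:46304717-46304736 (+): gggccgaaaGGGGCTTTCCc
Nfkb2, chr19:46305445-46305493 (+): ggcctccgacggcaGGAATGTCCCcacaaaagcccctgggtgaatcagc
Nfkb2, chr19:46305696-46305723 (+): ggtattttcGGGACTTTCCtaagcagca
Rel, chr11:23771026-23771086 (-): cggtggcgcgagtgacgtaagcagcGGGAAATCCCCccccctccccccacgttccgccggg
Nfkbia, chr12:55492648-55492701 (-): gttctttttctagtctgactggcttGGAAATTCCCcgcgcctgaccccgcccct
Nfkbie, chr17:45555569-45555628 (+): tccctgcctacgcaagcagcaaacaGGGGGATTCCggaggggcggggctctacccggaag
Nfkbid, chr7:30422156-30422259 (+): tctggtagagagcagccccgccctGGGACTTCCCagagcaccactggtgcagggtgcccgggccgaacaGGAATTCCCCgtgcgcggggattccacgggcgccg
Tnfaip3, chr10:19015517-19015544 (-): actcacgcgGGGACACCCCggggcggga
Tnfaip3, chr10:19015411-19015431 (-): atttccatcGGAAATCCCCct
Tnip3, chr6:65590319-65590378 (+): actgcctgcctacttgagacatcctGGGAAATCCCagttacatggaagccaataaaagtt

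Of the 4 Nfkb2 stretches, the one beginning at 46305445 lies outside GENCODE M21 exons and the others lie within them, and the stretches of the other genes lie outside exons. The matches of Nfkbia and Tnip3 lay 20 to 29 and 45 to 54 bases before the start, that of Rel 82 to 92 bases before it, and those of Tnfaip3 3 to 12 and 116 to 125 bases before it. The Blimp-1 motif, searched as AG, any base, GAAAG, any base and G, was found in 0 of the 12 windows, while 2.44% of all windows held it. A match describes letters in a window and does not show that a factor binds there.

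Counts per library ran from 21939818 to 32849428 in 7 of the 8 libraries of the stimulation experiment and from 60715362 to 76448945 in 5 of the 6 libraries of the Blimp-1 experiment. A library in each experiment stood apart from its group. IL-33 stimulated replicate 3 had 10470125 counts, 4.12% of them on the 7 loci described next, and control replicate 2 had 13570188 counts, of which 76.8% fell on 7 loci, most of them ribosomal or other noncoding RNA, against at most 0.941% in the other 5 libraries of that experiment, leaving 3150795 counts for all other genes. The SD across genes of the log2 ratio between replicates was 1.71 to 1.87 in the 5 pairs with either library and 0.395 to 0.511 in the other 13 pairs. The comparisons of the 10 genes are therefore given with and without that library. Prdm1 had 75.2, 92.8 and 74.0 CPM in the 3 control libraries and 14.6, 11.5 and 11.4 CPM in the 3 Blimp-1-deficient libraries, so each library matched its label. The 14 ILC2 marker genes were each at 1 CPM or more in every library. Several markers of other cells moved with the groups, and in bulk RNA fewer cells of a type and less RNA per cell cannot be told apart. The 10 myeloid genes summed to 82.5 to 187 CPM unstimulated and 38.8 to 120 CPM after IL-33. In control and Blimp-1-deficient libraries they summed to 28.4 to 112 and 31.5 to 101 CPM, and the groups overlapped in both experiments. Of 10 T cell genes, in cells gated as CD3-, 7 were at 1 CPM or more in every unstimulated library and 5 in every IL-33 stimulated library. Their summed levels were 191 to 216 and 50.3 to 74.5 CPM, to which Trbc2 gave 114 to 122 and 24.2 to 35.2 CPM. Trac gave 2.78 to 6.70 and 0.887 to 2.55 CPM. The 6 mast cell and basophil genes summed to 305 to 371 CPM and 130.02 to 185 CPM, nearly all of it Kit, with Tpsb2 at 0 in every unstimulated library. The 6 ILC1 and NK cell genes summed to 50.01 to 107 and 28.6 to 45.6 CPM, and 6 B cell genes to 10.8 to 13.6 and 15.2 to 19.98 CPM. Of 6 epithelial and stromal genes, with sums of 302 to 477 and 201 to 367 CPM, Epcam went from 52.4 to 69.5 down to 2.27 to 3.55 CPM and Pecam1 from 48.3 to 80.9 up to 109 to 140.04 CPM. Cdh5 moved opposite to Pecam1, from 23.4 to 42.9 to 12.9 to 24.6 CPM, in overlapping ranges. Col1a1, at 153 to 297 and 55.7 to 237 CPM, overlapped too. In the Blimp-1 experiment, the ILC1 and NK cell genes summed to 72.6 to 141 CPM in control and 19.6 to 73.1 CPM in Blimp-1-deficient libraries, mostly Gzmb, 5 ILC3 genes to 1.95 to 5.76 and 11.8 to 28.6 CPM, and the mast cell and basophil genes to 137 to 150.5 and 163 to 211 CPM. The epithelial and stromal genes summed to 168 to 2224 CPM in control libraries, highest in replicate 2, and to 358 to 469 CPM in Blimp-1-deficient libraries, with Pecam1 at 31.7 to 80.8 and 159.96 to 175 CPM. Cdh5, at 17.8 to 32.7 and 24.5 to 38.2 CPM, overlapped between the genotypes. So did Col1a1, at 48.1 to 2171 and 139 to 268 CPM. The part of these cells in the results was not tested.

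Levels of different genes were compared per length, as TPM rescaled to the same sum in every library without the 7 loci and, here, without IL-33 stimulated replicate 3 and control replicate 2. In unstimulated ILC2s the transcript of Nfkb1, the gene of the p105 precursor of the p50 subunit, was the most abundant of the 10 at 222 ± 11.1 rescaled TPM (SD, n = 4). Nfkb2, which encodes the p100 precursor of p52, and Nfkbia, which encodes the classical inhibitor IκBα, followed at 114 ± 10.04 and 94.3 ± 5.66 rescaled TPM, and the ranges of these genes overlapped. Nfkbiz stood at 54.6 ± 10.8, Nfkbid at 35.0 ± 5.95, Nfkbie at 32.9 ± 1.55, Relb at 27.2 ± 2.66, Tnfaip3 at 14.5 ± 1.12 and Rel at 11.2 ± 0.698 rescaled TPM, and of these neighbours only Nfkbid and Nfkbie had overlapping ranges. Tnip3 was last at 0.0677 ± 0.0420 rescaled TPM, from 2 to 13 counts per library.

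After IL-33 the order of levels per length changed. Nfkbia led at 390.4 ± 24.6 rescaled TPM, with Nfkb2 at 382 ± 21.1 in an overlapping range, and Nfkb1 had moved to place 3 at 162 ± 3.17 rescaled TPM (SD, n = 3). Tnfaip3 stood in place 4 at 113 ± 16.4 rescaled TPM, up from place 8. Nfkbiz followed at 85.2 ± 2.91, Nfkbid at 60.03 ± 5.89, Nfkbie at 40.4 ± 2.36, Relb at 38.1 ± 1.67, Rel at 35.3 ± 0.900 and Tnip3 at 1.45 ± 0.259 rescaled TPM, and of these neighbours only Nfkbie and Relb overlapped. In the 72 h cultures Nfkbia, Nfkb2, Nfkb1, Nfkbiz and Tnfaip3 held places 1 to 5 in both genotypes, with no overlap between neighbours in either. Control Nfkbia was at 273 and 259.8 rescaled TPM in replicates 1 and 3 and control Nfkb2 at 151 and 132, and the Blimp-1-deficient means were 324 ± 34.5 and 231 ± 25.8 rescaled TPM (SD, n = 3). Below them, Nfkbie, Nfkbid and Relb lay between 20.3 and 26.0 rescaled TPM in the controls, with overlapping ranges, and Rel at 15.4 and 16.2. Without Blimp-1, Nfkbie, Relb, Nfkbid and Rel followed each other at 39.4 ± 6.53, 33.8 ± 5.43, 29.5 ± 3.72 and 24.8 ± 1.59 rescaled TPM, each overlapping the next. Tnip3 was last in both genotypes, at 0.327 and 0.520 in the controls and 1.52 ± 0.612 rescaled TPM without Blimp-1. The deposited lengths of Nfkb2, Nfkbie and Rela are 3289, 2422 and 2716 bases, while their GENCODE M21 exons hold 4584, 3045 and 3072. With the longer lengths their levels per length and their shares would be lower, and the places of Nfkb2 and Nfkbie can change. The 2 experiments were deposited as separate tables, so these levels stand side by side and were not tested against each other.

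**Figure D1:**
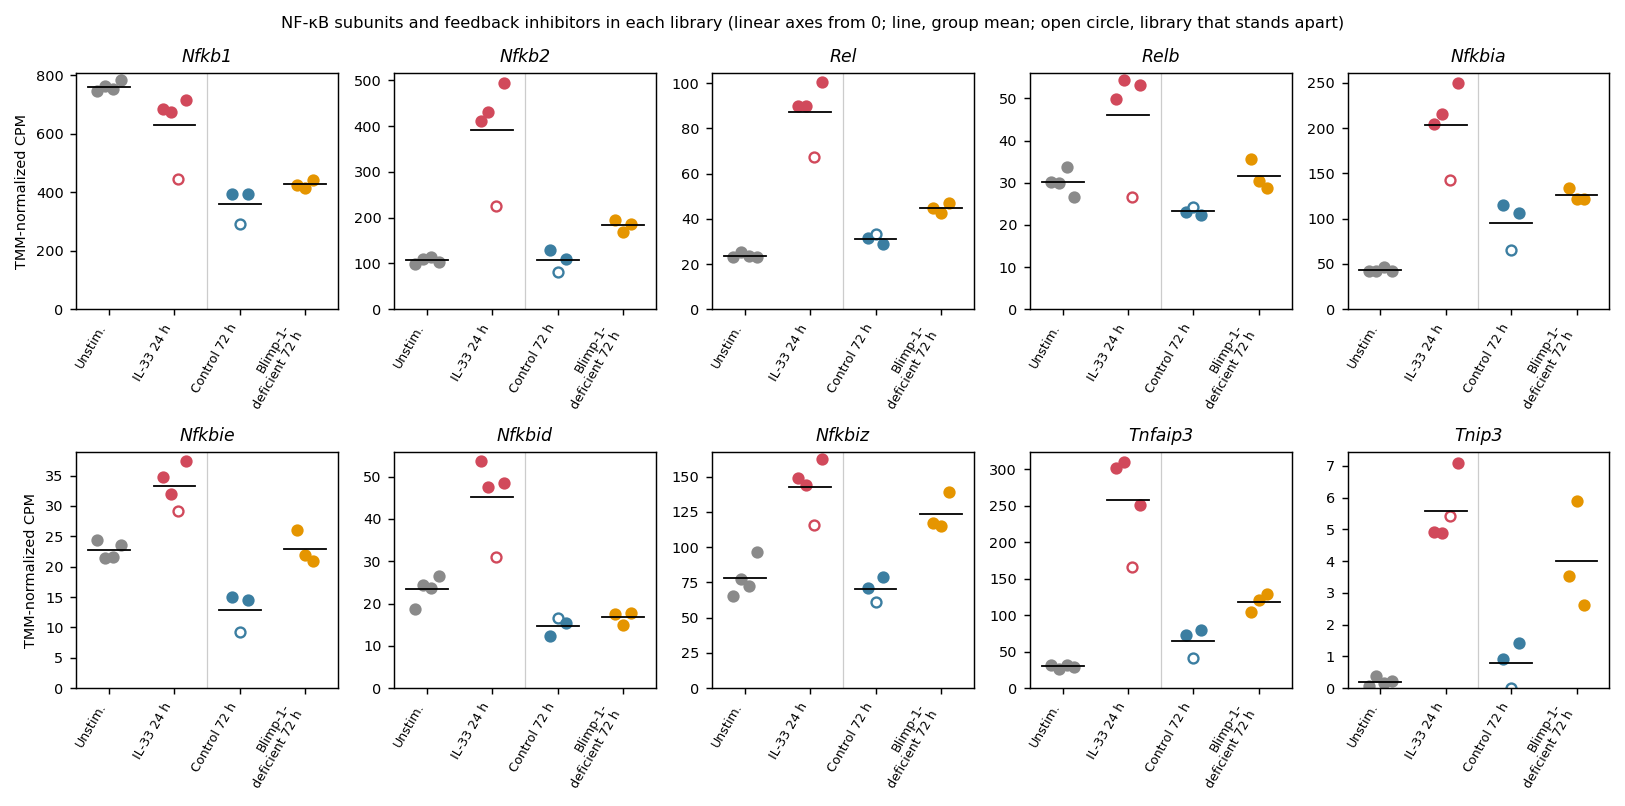
Each panel plots 1 gene, with the TMM-normalized CPM of each library on a linear axis from 0, the 4 groups along the x axis, and a line at the group mean over all libraries; the experiments were normalized separately. Open circles mark IL-33 stimulated replicate 3 and control replicate 2. Tnfaip3 sits between 26.6 and 32.4 CPM in the unstimulated libraries and between 166 and 309 CPM after IL-33, while Nfkb1 is lower after IL-33 in every library.

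To ask how the pathway's own genes stood after IL-33, IL-33 stimulated ILC2s were compared with unstimulated ILC2s. Of the 10 genes, 8 rose and 0 fell (edgeR quasi-likelihood test, adjusted p under 0.05 over 15466 genes, n = 4 per group), while 16.2% of all genes tested (2508) were higher and 16.1% (2484) lower. That split moves with the scaling, to 1805 higher and 3691 lower with library size alone and to 2072 and 3550 with the 7 loci left out. At an unadjusted p under 0.05, 9 were higher and 0 lower, against 22.6% and 21.3% of all genes tested. DESeq2 called 9 higher and 0 lower, against 12.6% and 12.1% of the 26432 genes to which it gave a p. Every inhibitor gene rose, whereas among the subunit genes Nfkb2 and Rel rose, Relb and Nfkb1 did not pass the test, and the log2 fold change of Nfkb1 lay below 0. The median log2 fold change was 1.41 over the 10 genes, 1.24 over the 4 subunit genes, 1.59 over the 6 inhibitor genes and 0.06 over all genes tested. In 8 of the 10 every stimulated library lay above every unstimulated library, which was so for 17.0% of all genes tested. Without IL-33 stimulated replicate 3, 9 rose and 1 fell by edgeR, against 27.5% and 29.7% of 15733 genes, and 9 rose and 0 fell by DESeq2.

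Among the subunits, Nfkb2 (chr19:46304320-46312385, GRCm38) had 98.6, 110.1, 114 and 104 CPM in the 4 unstimulated libraries and 412, 430.5, 225 and 495 CPM in IL-33 stimulated replicates 1 to 4. The groups did not overlap, and replicate 3 was the lowest of the stimulated libraries. The log2 fold change was 1.88 (standard error, SE, 0.22, adjusted p = 0.000489). Exons of Psd and AC114539.1 on the opposite strand overlap those of Nfkb2, the larger overlap covering 11.6% of its exon bases, and no source states whether counting used strand, so reads from that stretch cannot be told apart. Rel (chr11:23736847-23770970), the gene of the c-Rel subunit of activated lymphocytes, stood at 23.2, 25.2, 23.4 and 23.1 CPM unstimulated and at 90.0, 90.1, 67.6 and 101 CPM stimulated. Every stimulated library lay far above the unstimulated ones, and its log2 fold change was 1.88 (SE 0.12, adjusted p = 3.32e-05).

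Relb (chr7:19606217-19629438), the gene of the partner of p52 in the non-canonical pathway, had 30.1, 29.9, 33.7 and 26.7 CPM unstimulated and 49.8, 54.4, 26.5 and 53.2 CPM stimulated. Replicate 3 lay below all 4 unstimulated libraries while the other 3 stimulated libraries lay above them. The log2 fold change was 0.61 (SE 0.22, adjusted p = 0.0636) with it and 0.80 (SE 0.08, adjusted p = 1.51e-05) without it. Nfkb1 (chr3:135584655-135691547) had 746, 765, 753 and 783 CPM unstimulated and 683, 674, 447 and 715 CPM stimulated, so that every stimulated library lay below every unstimulated one. Its log2 fold change was -0.27 (SE 0.14, adjusted p = 0.172) with all libraries and -0.14 (SE 0.05, adjusted p = 0.0300) without replicate 3. Rela, which encodes the p65 subunit and is not a member of the set, was at 112 to 121 CPM unstimulated and at 87.8, 98.7, 48.2 and 95.6 CPM stimulated, with log2 fold changes of -0.51 (SE 0.20, adjusted p = 0.0941) and, without replicate 3, -0.32 (SE 0.06, adjusted p = 0.000957).

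The classical IκB genes of the set, Nfkbia and Nfkbie, rose after IL-33. Nfkbia (chr12:55489410-55492647) had 42.4, 42.7, 46.1 and 41.7 CPM unstimulated and 205, 215, 142 and 250.04 CPM stimulated, with the lowest stimulated library over 3 times the highest unstimulated one. Its log2 fold change was 2.23 (SE 0.16, adjusted p = 5.25e-05). Nfkbie (chr17:45555703-45563169), the gene of IκBε, moved less, from 24.4, 21.4, 21.5 and 23.5 CPM to 34.8, 31.9, 29.2 and 37.4 CPM. These groups did not overlap, and the log2 fold change was 0.55 (SE 0.11, adjusted p = 0.00498), while limma on log2(TPM + 1) gave 0.21, which did not pass the test (adjusted p = 0.154).

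The nuclear IκB proteins bind NF-κB dimers on DNA and can both restrain and assist transcription. Nfkbiz (chr16:55811375-55838899), which encodes IκBζ, had 65.0, 77.1, 72.5 and 96.7 CPM unstimulated and 149, 144, 115 and 162 CPM stimulated, a log2 fold change of 0.87 (SE 0.15, adjusted p = 0.00270). Nfkbid (chr7:30421732-30428746), which encodes IκBNS, had 18.7, 24.4, 23.7 and 26.5 CPM unstimulated and 53.7, 47.5, 30.9 and 48.4 CPM stimulated. In neither gene did the groups overlap, though replicate 3 was nearest to the unstimulated libraries in both. The log2 fold change of Nfkbid was 0.95 (SE 0.19, adjusted p = 0.00544), and with limma on log2(TPM + 1) it was 0.59 (adjusted p = 0.0569).

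The ubiquitin-dependent inhibitors had the largest log2 fold changes of the 10 genes. Tnfaip3 (chr10:19000910-19015657) encodes A20, an enzyme that edits ubiquitin chains on receptor signalling complexes and so ends NF-κB activation. It had 32.4, 26.6, 32.2 and 28.8 CPM unstimulated and 302, 309, 166 and 251 CPM stimulated. Replicate 3 was again lowest among the stimulated libraries and still over 5 times the highest unstimulated one, and the log2 fold change was 3.10 (SE 0.20, adjusted p = 3.37e-05). Tnip3 (chr6:65525313-65634040), which encodes the A20-binding protein ABIN-3, rose from 2, 13, 4 and 7 counts to 150, 151, 55 and 200 counts in replicates 1 to 4. In CPM it went from 0.208 ± 0.126 to 5.58 ± 1.03 (SD, n = 4), a log2 fold change of 4.70 (SE 0.48, adjusted p = 0.000256), with few counts behind the unstimulated level. Without replicate 3 the log2 fold changes of the 8 genes called over all libraries were 2.07 for Nfkb2, 1.98 for Rel, 2.37 for Nfkbia, 0.61 for Nfkbie, 0.96 for Nfkbiz, 1.10 for Nfkbid, 3.26 for Tnfaip3 and 4.68 for Tnip3, with an adjusted p of at most 0.000109.

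**Figure D2:**
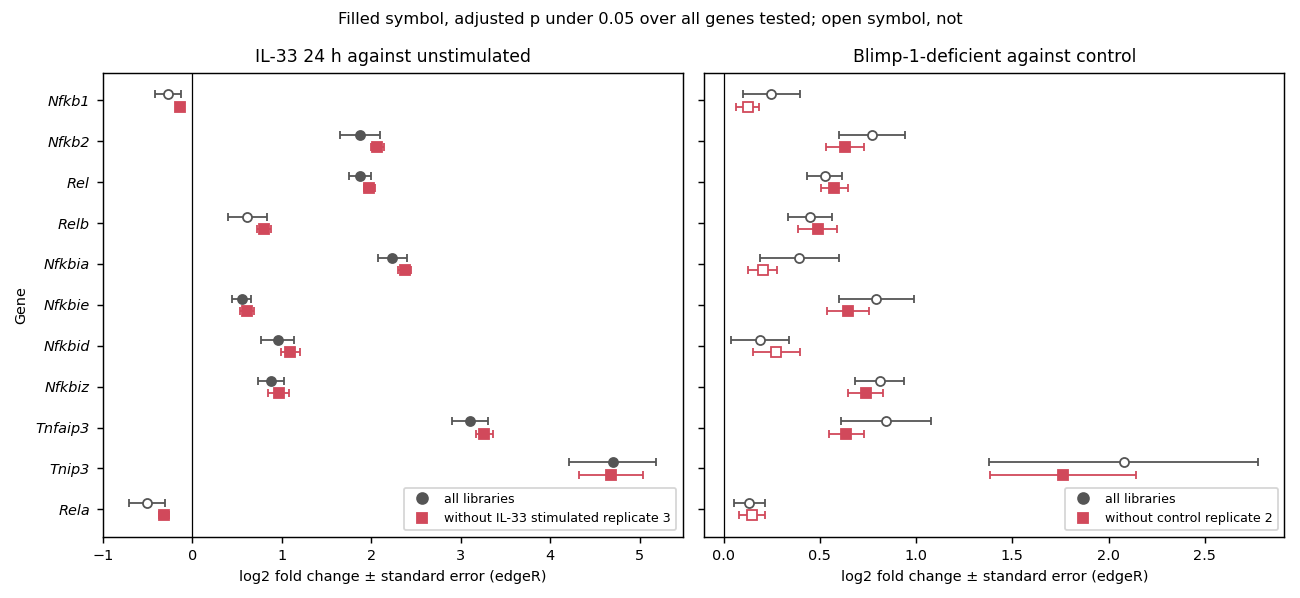
Points give the edgeR log2 fold change and bars its standard error for the 10 genes and Rela, with IL-33 against unstimulated on the left and Blimp-1-deficient against control on the right, over all libraries and without the library that stands apart. Filled symbols passed an adjusted p of 0.05: 8 genes on the left and 0 on the right over all libraries, and 7 on the right without control replicate 2.

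The make-up of the subunit transcripts was then compared as the share of each gene in the summed TPM of Rela, Rel, Relb, Nfkb1 and Nfkb2, which does not depend on the scaling between libraries. Nfkb1 made up 42.0, 41.5, 41.3 and 43.9% of these transcripts in the unstimulated libraries and 23.7, 22.4, 26.7 and 21.8% after IL-33. Nfkb2 made up 20.4, 21.9, 22.8 and 21.4% and then 52.4, 52.5, 49.2 and 55.3%, so that the order of these precursor genes was turned around in 4 of 4 libraries. Rela went from 28.0 to 30.2% down to 12.8 to 14.6%, and Rel from 2.08 to 2.21% up to 4.84 to 6.51%, with no overlap in either. Relb kept to 4.65 to 5.73% and 4.91 to 5.62%, and its ranges overlapped.

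The 6 inhibitor genes together had 0.601 to 0.660 of the summed TPM of the 4 subunit genes in unstimulated libraries and 1.09 to 1.32 times that sum after IL-33. The ratio of Nfkbia to Nfkb1 TPM was 0.399 to 0.458 unstimulated and 2.25 to 2.62 stimulated. In both ratios the groups lay apart, and IL-33 stimulated replicate 3 was the highest of its group in the first at 1.32 and within it in the second at 2.39.

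**Figure D3:**
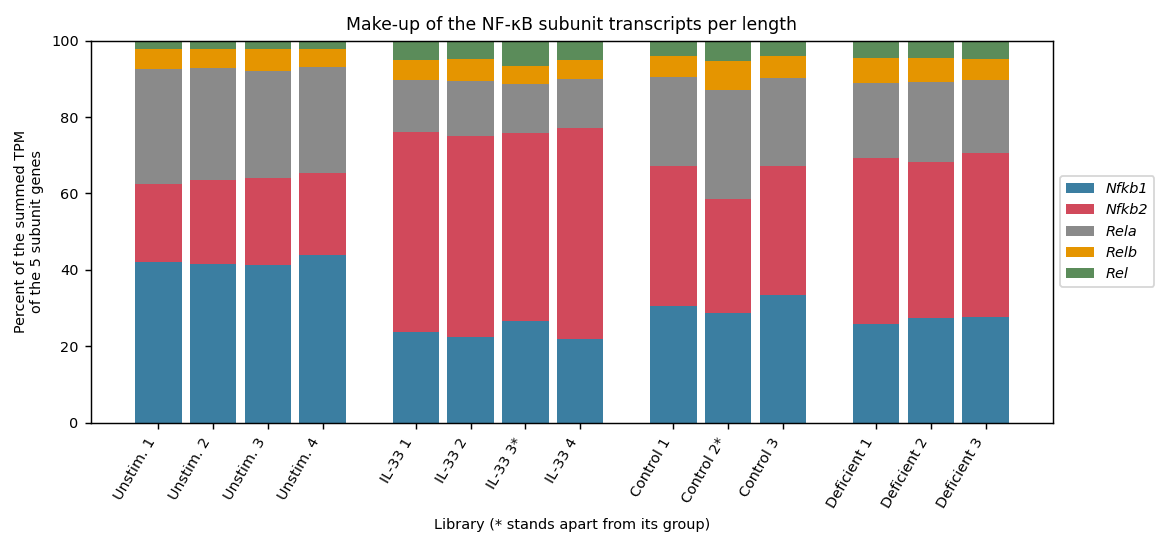
Each bar is 1 library and shows the percent of the summed TPM of the 5 NF-κB subunit genes held by each, grouped by condition, with asterisks on the 2 libraries that stand apart. Nfkb1 takes 41.3 to 43.9% of the unstimulated bars, Nfkb2 takes 49.2 to 55.3% of the IL-33 bars, and in the Blimp-1 experiment Nfkb2 takes 29.9 to 36.7% of the control and 40.8 to 43.5% of the Blimp-1-deficient bars.

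The rest of the pathway was examined through a list of 79 genes in 6 groups, of which 77 could be tested after IL-33. Of these, 28 rose, 13 fell and 36 did not pass the test, with a median log2 fold change of 0.08 against 0.06 over all genes, and without replicate 3 the counts were 35 and 23. Of all genes tested 16.2% rose and 16.1% fell, and 27.5% and 29.7% without replicate 3. Among 15 other inhibitors and feedback proteins, 6 rose and 1 fell, and 10 and 2 without replicate 3. Zc3h12a, which encodes the RNase regnase-1, rose from 20.5 ± 1.17 to 113 ± 30.1 CPM (log2 fold change 2.47, adjusted p = 9.38e-05). Nfkbib, the gene of IκBβ, rose by 1.49 on the log2 scale (adjusted p = 0.000533), Irak3, a brake on the IL-1 receptor family, by 1.17 (adjusted p = 0.00185) and Tnip1, which encodes the A20 partner ABIN-1, by 0.90 (adjusted p = 0.00517). Tnip1 did not pass the test with limma on log2(TPM + 1), with a log2 fold change of 0.53 (adjusted p = 0.0579).

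Of 11 genes of the IKK complex and NF-κB kinases 2 rose and 1 fell, a share near that of all genes (16.2% and 16.1%), and without replicate 3 the counts were 3 and 3. Map3k8, the gene of the kinase TPL-2 that binds p105, rose from 17.1 ± 1.46 to 53.4 ± 12.1 CPM (log2 fold change 1.64, adjusted p = 0.000329), and Tab2, which encodes an adaptor of the kinase TAK1, fell by 0.44 on the log2 scale (adjusted p = 0.000415). Of 12 tested receptors of IL-33 and IL-25 and their adaptors, 7 fell and 1 rose (8 and 1 without replicate 3), with a median of -0.66. Il17rb, the gene of the IL-25 receptor chain, fell from 28.5 ± 5.83 to 3.36 ± 1.25 CPM (log2 fold change -3.07, adjusted p = 0.000230). Irak4 fell by 1.20 (adjusted p = 0.00265) and Il17ra by 1.09 (adjusted p = 0.00857) on the log2 scale, and Peli1, which encodes a ubiquitin ligase that acts on IRAK proteins, rose by 0.95 (adjusted p = 0.000219).

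In the TNF receptor arm 2 of 12 genes rose, Traf1 and Birc3, each by 1.25 on the log2 scale (adjusted p = 0.00202 and 0.000208), and 1 fell, Tnfrsf1a, by 0.65 (adjusted p = 0.0466), a call that was lost in 8 of 18 alternatives (adjusted p 0.0541 to 0.144): no filter on low counts, the replicate block, and leaving out unstimulated replicate 1, 2 or 3 or stimulated replicate 1, 2 or 4. Of all genes 16.2% rose and 16.1% fell, so the share of this arm that rose was near that of all genes. Without replicate 3, 3 of the 12 rose and 5 fell, against 27.5% and 29.7% of all genes. Among 26 tested target genes of NF-κB 17 rose and 3 fell (18 and 4 without replicate 3), with a median of 1.36. The cytokine and chemokine genes Cxcl2, Csf2, Il6 and Tnf rose by 6.65, 5.88, 4.70 and 2.89 on the log2 scale (adjusted p at most 0.000155 for each), and Csf2, which encodes GM-CSF, went from 34.0 ± 2.33 to 2003 ± 422 CPM (SD, n = 4). The 3 target genes that fell, named after their values were seen, were Il2, Ltb and Plau. Their log2 fold changes were -4.07, -1.50 and -0.80 (adjusted p = 0.000106, 0.000490 and 0.0129).

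To ask whether these genes differed without Blimp-1, Blimp-1-deficient ILC2s were compared with control ILC2s after 72 h of activation. Over all 6 libraries, the log2 fold changes of the 10 genes all lay above 0, with a median of 0.65 against -0.02 over all genes tested, but 0 of the 10 passed the test in either direction, in a comparison that called 0.450% of 17335 genes higher and 0.306% lower. At an unadjusted p under 0.05, 7 were higher and 0 lower by edgeR, against 6.17% and 5.78% of all genes tested. DESeq2 called 7 higher and 0 lower, against 1.85% and 1.83% of 30127 genes. On data simulated with edgeR dispersions for this design, 30.4% of its calls were false, compared with 6.25% for edgeR. These shares need not hold for the real calls. In 9 of the 10, Nfkbid being the exception, every Blimp-1-deficient library lay above every control library, which was so for 11.8% of all genes tested. Without control replicate 2, 7 rose and 0 fell, against 8.25% and 5.72% of 17968 genes. These 7 were Nfkb2, Rel, Relb, Nfkbie, Nfkbiz, Tnfaip3 and Tnip3, and the median over the 10 genes was 0.60. With all 6 libraries no edgeR setting called more than 1 of them (Nfkbiz with a mean count of at least 50, Tnip3 with library size alone), and in control replicate 2 the 10 genes had 0 to 1190 counts each.

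CPM values in this experiment come from the normalization over all 6 libraries, and the log2 fold changes that follow leave out control replicate 2 unless stated. Nfkb2 had 129, 82.3 and 109.7 CPM in the controls and 195, 169 and 187 CPM without Blimp-1. The lowest Blimp-1-deficient library lay above the highest control, and the log2 fold change was 0.63 (SE 0.10, adjusted p = 0.00846), or 0.77 (adjusted p = 0.131) over all 6. Rel had 31.5, 33.1 and 29.0 CPM in the controls and 44.9, 42.8 and 46.8 CPM without Blimp-1, a narrow spread in both groups, and its log2 fold change was 0.57 (SE 0.07, adjusted p = 0.00418), or 0.53 (adjusted p = 0.0671) over all 6. Relb had 23.1, 24.4 and 22.3 CPM and 35.6, 30.5 and 28.8 CPM, with a log2 fold change of 0.49 (SE 0.10, adjusted p = 0.0236), or 0.45 (adjusted p = 0.179) over all 6. For Rel and Relb, control replicate 2 lay above the other controls, and for Nfkb2 below them.

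Nfkb1 had 394, 289.8 and 395 CPM in the controls and 424, 416 and 441 CPM without Blimp-1. Its log2 fold change was 0.12 (SE 0.06, adjusted p = 0.217), or 0.25 (adjusted p = 0.603) over all 6, and did not pass the test. Rela, at 67.7, 65.3 and 61.5 CPM against 72.5, 72.0 and 68.7 CPM, had a log2 fold change of 0.15 (SE 0.07, adjusted p = 0.189), or 0.13 (adjusted p = 0.600) over all 6.

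Among the inhibitors 4 of 6 rose without control replicate 2, as did 3 of the 4 subunits. Nfkbiz had 71.0, 61.4 and 78.5 CPM in the controls and 117, 115 and 139 CPM without Blimp-1, with a log2 fold change of 0.74 (SE 0.09, adjusted p = 0.00425), or 0.81 (adjusted p = 0.0544) over all 6. Nfkbie had 14.99, 9.26 and 14.5 CPM and 26.0, 21.9 and 20.9 CPM, and its log2 fold change was 0.65 (SE 0.11, adjusted p = 0.0112), or 0.79 (adjusted p = 0.169) over all 6. In both genes the genotypes were separated in every library.

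Nfkbia, whose IκBα protein is the main inhibitor of p65 dimers, had 114, 65.3 and 106 CPM in the controls and 134, 121 and 122 CPM without Blimp-1. Control replicate 2 was far below the other controls, and the log2 fold change of 0.20 (SE 0.07, adjusted p = 0.116), or 0.39 (adjusted p = 0.543) over all 6, did not pass the test. Nfkbid had 12.4, 16.6 and 15.4 CPM and 17.6, 14.8 and 17.7 CPM, overlapping groups with a log2 fold change of 0.27 (SE 0.12, adjusted p = 0.178), or 0.19 (adjusted p = 0.706) over all 6.

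Tnfaip3 had 73.0, 41.9 and 79.6 CPM in the controls and 104, 121 and 128 CPM without Blimp-1, with a log2 fold change of 0.64 (SE 0.09, adjusted p = 0.00618), or 0.84 (adjusted p = 0.217) over all 6. Tnip3 had the largest log2 fold change of the 10 in this comparison, from 77, 0 and 136 counts in the controls to 292, 456 and 253 counts, which is 0.929, 0 and 1.44 CPM against 3.53, 5.88 and 2.62 CPM. In control replicate 2 a count of 0 allows up to 3 counts, or 0.731 CPM at its depth, by counting error alone. The log2 fold change of Tnip3 was 1.76 (SE 0.38, adjusted p = 0.0254), or 2.08 (SE 0.70, adjusted p = 0.308) over all 6.

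The shares of Nfkb2, Nfkb1 and Rela among the subunit transcripts also differed between the genotypes in all 6 libraries. Nfkb2 made up 36.7, 29.9 and 33.9% in the controls and 43.5, 40.8 and 43.0% without Blimp-1. Nfkb1 made up 30.5, 28.7 and 33.3% and then 25.8, 27.4 and 27.6%, and Rela 23.3, 28.7 and 23.0% and then 19.6, 21.04 and 19.1%. For each of these 3 genes the genotypes did not overlap, whereas Rel at 3.95 to 5.29% and 4.41 to 4.73% and Relb at 5.56 to 7.48% and 5.60 to 6.72% did. Shares within a sum are tied, and the lower shares of Nfkb1 and Rela were not lower levels. In CPM both lay above every control in every Blimp-1-deficient library. Their log2 fold changes without control replicate 2, 0.12 and 0.15, did not pass the test. The ratio of Nfkb2 to Nfkb1 TPM was 1.20, 1.04 and 1.02 in the controls and 1.68, 1.49 and 1.56 without Blimp-1. The ratio of the 6 inhibitor genes to the 4 subunit genes was 1.303, 1.16 and 1.39 in the controls and 1.28, 1.32 and 1.29 without Blimp-1, so that the genotypes overlapped in it.

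In the pathway list, 2 of the 78 genes tested over all 6 libraries rose and 0 fell. At an unadjusted p under 0.05 by edgeR, 24 were higher and 3 lower (6.17% and 5.78% of all genes). DESeq2 called 16 higher and 3 lower (1.85% and 1.83% of all genes), and its share of false calls is known only from simulated data. The 2 genes that rose by edgeR over all 6 libraries were target genes whose products activate NF-κB in turn. Both calls were lost with a replicate block and with Blimp-1-deficient replicate 1 or 3 left out, where 0 of all genes were called. Tnf had 18.0 ± 2.51 CPM in the controls and 82.3 ± 1.83 CPM without Blimp-1 (log2 fold change 2.17, adjusted p = 0.00441), and Ltb, which encodes lymphotoxin β, had 14.2 ± 1.58 and 50.9 ± 8.03 CPM (log2 fold change 1.82, adjusted p = 0.0122; SD, n = 3). Without control replicate 2, 21 of 79 rose and 5 fell, against 8.25% and 5.72% of all genes, with a median log2 fold change of 0.17 against 0.01. The share that fell was thus near that of all genes. Target genes supplied 14 of the 21, and their median was 0.73, with Lta, the gene of lymphotoxin α, at 1.73 (adjusted p = 0.000939) and Cd83 at 1.57 (adjusted p = 0.0276). The 1 target gene that fell was the chemokine gene Ccl4, at -1.66 (adjusted p = 0.0230), which lies under the level set for naming genes and was named after its values were seen.

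The other groups are given over the same 5 libraries, and over all 6 none of their genes passed the test. Of the 15 other inhibitors, 3 rose and 1 fell. Tnip1 rose by 0.71 (adjusted p = 0.00146), Zc3h12a by 0.54 (adjusted p = 0.00950) and Itch, a ubiquitin ligase that works with A20, by 0.37 (adjusted p = 0.00674), and Bcl3, the gene of a nuclear IκB protein that partners p50 and p52, fell by 0.40 on the log2 scale (adjusted p = 0.0145). Of 13 receptor and adaptor genes 3 fell and 0 rose, namely Peli1 by 0.64 (adjusted p = 0.00341), Il1rl1, which encodes the IL-33 receptor ST2, by 0.42 (adjusted p = 0.0267) and Il17ra by 0.24 (adjusted p = 0.0415). In the TNF receptor arm 3 of 12 rose, Tnfrsf1a at 0.54 (adjusted p = 0.0142), which over all 6 libraries lay in the other direction at -0.19 (adjusted p = 0.930), Birc2 at 0.53 (adjusted p = 0.0310) and Rbck1 at 0.36 (adjusted p = 0.0138), and of the kinases 1 of 11 did, Map3k8 at 0.40 (adjusted p = 0.00746), a share near the 8.25% of all genes.

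**Figure D4:**
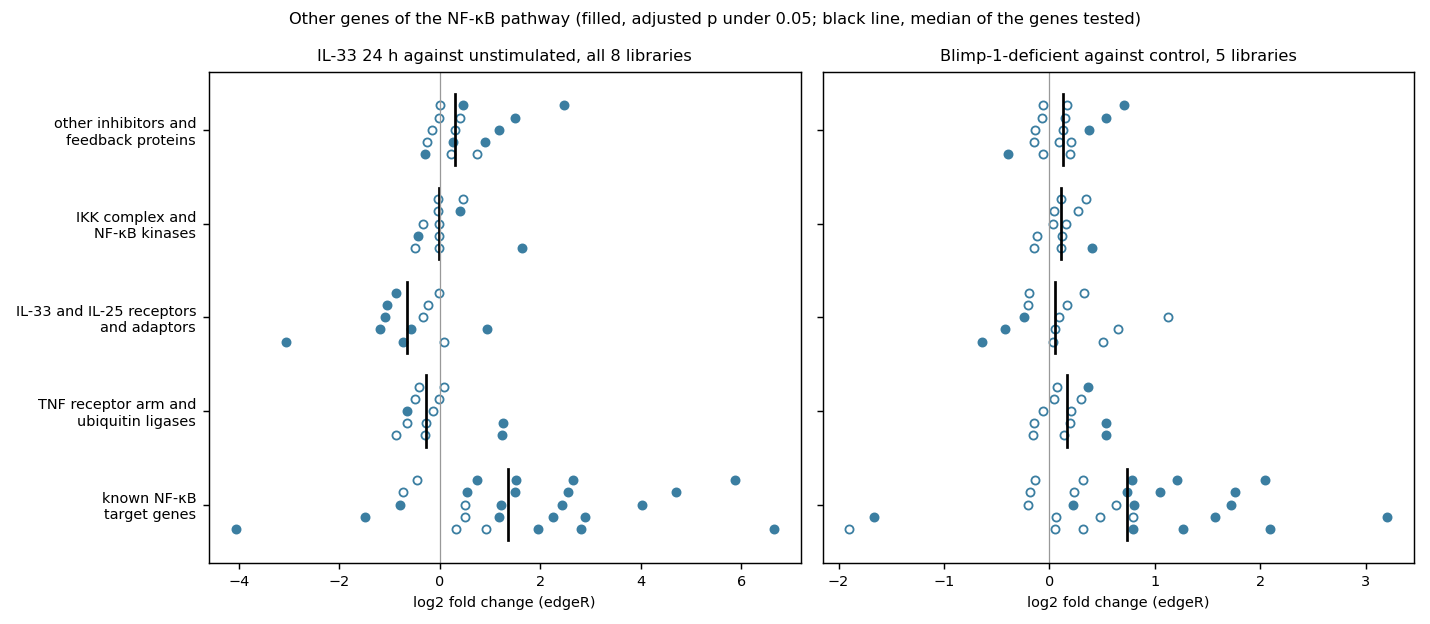
Each point is a gene of the pathway list at its edgeR log2 fold change, by group, filled where the adjusted p is under 0.05 and with a black line at the group's median, for IL-33 against unstimulated over all 8 libraries on the left and Blimp-1-deficient against control without control replicate 2 on the right. The target genes have the highest medians, 1.36 on the left and 0.73 on the right.

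The 10 genes were also followed across the 12 libraries that did not stand apart, as log2 CPM centred within each experiment. The correlation of each with the mean of the other 9 was r = 0.895 to 0.975 for 9 genes and r = -0.50 for Nfkb1, a description over libraries that fall into the same 4 groups. Among 10013 other genes with a mean of at least 5 CPM in both experiments, the 5 whose pattern was most like the mean of the set were Slc2a6 (r = 0.991), Tnfsf8, Tnf, Pim2 and Sema6d (r = 0.989 each). They were picked by their pattern over the same groups. Their differences between these groups follow from that choice and are given as a description only. Slc2a6, a gene of the sugar transporter family, rose after IL-33 by 3.67 on the log2 scale (adjusted p = 4.27e-05), and it was higher by 1.76 without Blimp-1 with control replicate 2 left out (adjusted p = 0.00258) and by 1.90 over all 6 libraries (adjusted p = 0.0362). For Tnfsf8, the gene of the CD30 ligand, these 3 values were 4.11 (adjusted p = 2.86e-05), 2.19 (adjusted p = 0.00232) and 2.48, which did not pass the test (adjusted p = 0.0544). For the kinase gene Pim2 they were 2.54 (adjusted p = 6.55e-06), 1.31 (adjusted p = 0.000285) and 1.45 (adjusted p = 0.0294).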

How the data were processed

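The members and gene lists were chosen with earlier results of these data known. The authors prepared libraries with the SMART-seq v4 and Nextera XT kits, sequenced paired 75-base reads, trimmed them with cutadapt 1.18 and aligned them to GRCm38 with HISAT2 2.1.0 (the labels name Bowtie2), and the deposited raw counts per gene come from Subread. The deposited TPM are these counts divided by gene length and scaled to the same sum in every library. All 28 value columns were used.

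Counts were tested with edgeR 4.0.16 in R 4.3.3 (TMM, filterByExpr, quasi-likelihood test, Benjamini-Hochberg adjustment over all genes tested, threshold 0.05, two-sided), each experiment on its own and without a replicate term. CPM are TMM-normalized, without a prior count (2 for the correlations). Replicates are separate mice by the deposited description, while some legends of the study speak of sorting samples from pooled animals. Alternatives were DESeq2 1.42.0, other scalings and filters, limma 3.58.1 on log2(TPM + 1) and log2(TPM + 0.1), a replicate block and leaving out each library, and DESeq2 without the library that stands apart was added after seeing the data. Depth was 10470125 to 76448945 counts per library, and count limits cover counting error only.

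On simulated data for 15466 genes of the stimulation design edgeR recovered 39% of genes changed by 1 and 74% of those changed by 2 on the log2 scale, with 4.24% of calls false. On 17335 genes of the Blimp-1 design these were 28%, 77% and 6.25%. DESeq2 recovered more, 59% and 90% and then 67% and 93%, with 31.7% and 30.4% of its calls false. The simulation drew counts from edgeR dispersions and changed 100 genes by each size. It repeated the size of control replicate 2 but not its pattern across genes. Its shares of false calls therefore need not hold for the real data. Named are the 10 genes, Rela, Prdm1, up to 4 pathway genes per group and comparison (called, not overlapping, at least 5 CPM, largest change) and the 5 genes most like the set. Coordinates come from GENCODE M21, promoters from RefSeq.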

Additional observations from a re-analysis of the deposited data

Results flagged for a closer look

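Among 20 groups of 4 libraries (10 genes in the stimulation experiment), 3 held a library far from the other 3, where chance alone gives about 1 in 20. For Rel, unstimulated replicate 2 at 25.2 CPM was separated from the others, at 23.1 to 23.4 CPM, by 0.861 of the range of the group. For Nfkb1, IL-33 stimulated replicate 3 at 447 CPM was separated from 674 to 715 CPM by 0.848 of the range. For Relb, the same library at 26.5 CPM was separated from 49.8 to 54.4 CPM by 0.837 of the range, and this library also had the fewest counts of its experiment. Groups of 3 libraries were not examined in this way.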

How the results depend on the processing

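All 178 alternative log2 fold changes of the 10 genes after IL-33 and all 158 in the Blimp-1 comparison had the sign of the value reported. The pathway genes named by the stated limits kept their sign after IL-33. In the Blimp-1 comparison 5 named pathway genes with a negative value over all 6 libraries turned positive under library size alone and the 2 limma fits in turn: Bcl3 (0.00751, 1.13 and 1.181), Il17ra (0.27, 1.24 and 1.56), Il1rl1 (0.0769, 1.40 and 1.42), Tnfrsf1a (0.70, 1.45 and 1.71) and, with limma, Peli1 (0.95 and 1.16), with none past the threshold. Leaving out libraries gave -0.49 to 0.54 for Tnfrsf1a, positive only without control replicate 2, where DESeq2 gave 0.53, and it passed the threshold in both. After IL-33, 8 genes were higher and 0 lower. Limma on log2(TPM + 1) and on log2(TPM + 0.1) gave 5 higher and 1 lower, without Tnip3, which its filter removed, and library size alone and leaving out the 7 loci gave 1 lower (Nfkb1 in each). Leaving out libraries gave 8 to 9 higher and 0 to 1 lower. Of the pathway list 13 were lower, and DESeq2 gave 20 with all libraries and 20 without replicate 3 (an alternative added after seeing the data), library size alone 23, the limma fits 27 each, the 7 loci left out 24, and leaving out libraries 11 to 23. These scalings moved the median of all genes from 0.06 to -0.10 (library size), -0.25 and -0.29 (limma) and -0.06 (7 loci). In the Blimp-1 comparison 0 of the 10 genes were higher. DESeq2 gave 7, also 7 without control replicate 2, library size alone 1 (Tnip3), a mean count of at least 50 gave 1 (Nfkbiz), and leaving out libraries 0 to 7, the 7 without control replicate 2. Library size alone and limma moved the median of all genes there to 0.45, 1.28 and 1.69. Of the pathway list 2 were higher and 0 lower, and DESeq2 gave 16 and 3 (27 and 8 without control replicate 2), the limma fits 0 higher, a mean count of at least 50 gave 1 lower, and leaving out libraries 0 to 21 higher and 0 to 5 lower. Over all genes, 2508 were higher and 2484 lower after IL-33, with 1027 to 4582 and 1820 to 4666 over the alternatives, and 78 and 53 in the Blimp-1 comparison, with 0 to 1932 and 0 to 1632. The cause of these shifts was not tested. With a replicate block, 8 genes were higher after IL-33, and in the Blimp-1 comparison 0 of the 10 and 0 of the pathway list were, the latter in place of 2. By the deposited description same-numbered libraries are different mice. Their deviations correlated at -0.14 to 0.28 and -0.13 to 0.12 for the stimulation and Blimp-1 experiments, not every library correlated best with its own number, and the numbers were not taken as pairs. Control replicate 2, with 3150795 counts outside the 7 loci, limits what the 6 libraries can show.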
